A study of Mus musculus with 2 samples.

Results

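The cytosolic ribosomal proteins are the protein parts of the ribosomes that translate nuclear-encoded mRNAs. They were taken here as all genes that the platform annotation names, 1 symbol per probe set, as Rpl or Rps followed by a number, together with Rplp0, Rplp1, Rplp2 and Rpsa, of which Rplp1 was found only beside a copy. The related ribosomal S6 kinases and symbols of pseudogenes were left out. This gave 50 of the 18193 genes on the array, 26 of the large subunit, 23 of the small subunit and Rps19bp1, which encodes a binding partner of Rps19 and is not itself part of the ribosome. A probe set can match several genes, and 31 further ribosomal protein symbols were listed on such probe sets alone. Ribosomal protein genes have many processed copies in the genome, and the 31 also include relatives such as Rpl36al. All 31 are described below through probe sets that belong to no single gene.

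The series compared CMT-93-PM1 with CMT-93. CMT-93 cells come from a rectal carcinoma of a mouse. CMT-93-PM1 is a culture grown from lung tumours that formed after CMT-93 cells had been injected into the tail vein of C57BL/6 females aged 6 weeks and left for 8 weeks. Both cultures were kept in the same medium with serum, and 6 µg of total RNA from each went onto 1 array. The number of mice, tumours or cells that founded CMT-93-PM1 is not stated in the labels, and a culture of tumour tissue can hold host cells.

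A ribosome has a small subunit, which reads the mRNA, and a large subunit, which joins amino acids. Each subunit carries its proteins once per ribosome, apart from a few stalk proteins, so cells make them in matched amounts. Most of their mRNAs begin with a run of pyrimidines, the terminal oligopyrimidine or TOP tract, through which mTORC1 signalling sets how much of the mRNA is translated. Growing tumour cells, whose protein synthesis is high, are known for strong expression of these genes.

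The arrays had median signals of 5.26 log2 for CMT-93-PM1 and 5.36 log2 for CMT-93, and highest signals of 14.28 log2 for CMT-93-PM1 and 14.25 log2 for CMT-93. Signals under the 40th percentile of an array, 4.59 log2 in CMT-93-PM1 and 4.69 log2 in CMT-93, were raised to that floor, and a gene above it on at least 1 array was called measured. The general epithelial markers Epcam (11.20 log2 in CMT-93-PM1, 10.36 log2 in CMT-93), Cdh1 (12.52 log2 in CMT-93-PM1, 12.66 log2 in CMT-93) and Krt19 (12.98 log2 in CMT-93-PM1, 12.72 log2 in CMT-93) were well above the floor on both arrays. So were Krt8 and Krt18, which were 1.47-fold and 1.89-fold higher in CMT-93-PM1. None of these is specific to the rectum. The intestinal transcription factor gene Cdx2 was a little above the floor (5.08 log2 in CMT-93-PM1, 5.24 log2 in CMT-93). The related gene Cdx1 and the brush border gene Vil1 were below the floor on both arrays. Of the markers of lung epithelium, 5 of 9 were above the floor in CMT-93-PM1 and 6 of 9 in CMT-93, with summed signals of 8.20 log2 in CMT-93-PM1 and 8.59 log2 in CMT-93, and the club cell gene Scgb1a1 was below it on both. Fibroblast and mural markers were above it for 4 of 9 genes on each array (summed signals of 7.81 log2 in CMT-93-PM1 and 7.96 log2 in CMT-93), endothelial markers for 2 of 7 (9.55 log2 in CMT-93-PM1 and 9.0 log2 in CMT-93) and leukocyte markers for 4 of 7 (8.57 log2 in CMT-93-PM1 and 8.95 log2 in CMT-93). Col1a1, Col3a1, Pecam1 and Ptprc of these lists were below the floor on both arrays. Others were above it on both, among them Col1a2 (5.34 in CMT-93-PM1, 5.65 in CMT-93), Kdr (5.89 in CMT-93-PM1, 5.94 in CMT-93) and Cd3e (6.00 in CMT-93-PM1, 6.01 in CMT-93). Of all 18193 genes, 13332 were above the floor on at least 1 array. The similar sums hide opposite differences of single markers. The endothelial cadherin gene Cdh5 read 9.30 in CMT-93-PM1 and 4.21, below the floor, in CMT-93, at least 24.4-fold higher in CMT-93-PM1. A dimmer probe set of Cdh5 read 5.52 in CMT-93-PM1 and 3.98, below the floor, in CMT-93, at least 1.78-fold higher. By contrast, the angiopoietin receptor gene Tek read 3.43, below the floor, in CMT-93-PM1 and 8.57 in CMT-93, at least 15.8-fold lower in CMT-93-PM1. Among leukocyte markers, Cd68 was 3.53-fold higher (7.05 in CMT-93-PM1, 5.23 in CMT-93) and Cd74 was 2.97-fold lower (6.70 in CMT-93-PM1, 8.27 in CMT-93). The part of host cells in the results below was not tested. With 1 array per culture there was no replicate error and no test between the cultures, and the lines cannot be told apart from the handling of their arrays.

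Most ribosomal protein genes read slightly lower in CMT-93-PM1 than in CMT-93. Of the 46 measured members, 39 had a log2 ratio of CMT-93-PM1 over CMT-93 below 0, against 48.7% of the 13332 measured genes. Their median log2 ratio was -0.13, with quartiles at -0.30 and -0.05, beside a median of 0.00 and quartiles at -0.23 and 0.29 for all measured genes. A single member, Rpl12, was at least 2-fold lower, and the same was true of 2.55% of all measured genes. No member was at least 2-fold higher, against 4.42% of all measured genes. The design gives no error for this median. For single genes, the SD between probe sets of 1 gene had a median of 0.18 log2 over all genes and 0.14 log2 over the 22 members with several measured probe sets. Shifting the arrays to equal medians added 0.10 to every gene alike: 25 of 46 members were then below 0, against 38% of all measured genes, and the members' median stayed 0.13 below that of all genes (-0.03 for members, 0.10 for all). Without the probe sets whose suffix marks them as able to match related transcripts, 23 members were left, with a median of -0.41. Of these, 20 were below 0, against 49.2% of all genes, and 3 were at least 2-fold lower, against 2.77%.

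**Figure D1:**
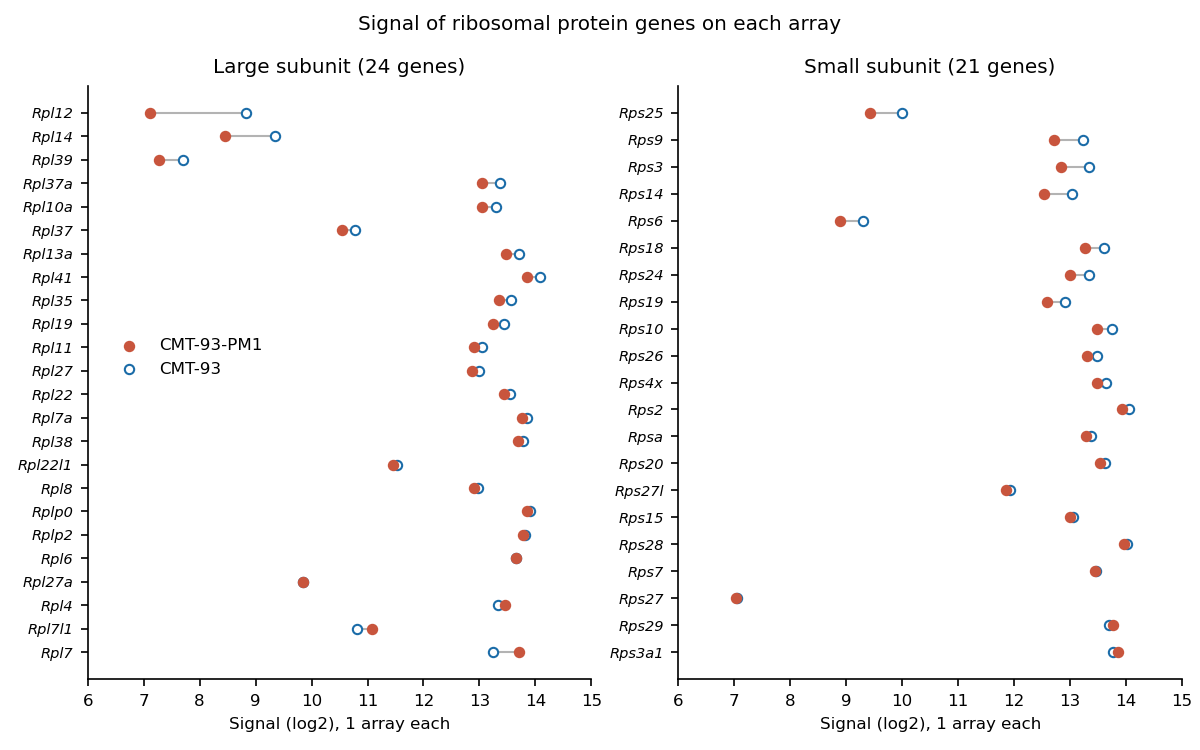
Log2 signal of each measured large subunit gene (left, 24 genes) and small subunit gene (right, 21 genes) on the CMT-93-PM1 array (filled) and the CMT-93 array (open), ordered by their difference, with 1 array per culture. Most pairs lie between 12 and 14 log2 with CMT-93-PM1 slightly to the left, and Rpl12 and Rpl14 have the widest gaps.

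The 24 measured large subunit genes had a median log2 ratio of -0.12 with 20 below 0. The 21 measured small subunit genes had a median of -0.17 with 19 below 0, against 48.7% of all measured genes. The medians thus lay 0.05 log2 apart, and the design gives no error for that difference. Without the suffixed probe sets the gap was wider, at 0.26 log2, with medians of -0.30 for 11 large subunit genes and -0.56 for 11 small subunit genes. The large subunit held both ends of the range, from -1.70 for Rpl12 to 0.46 for Rpl7. Small subunit genes ran from -0.56 for Rps25 to 0.10 for Rps3a1. Restricted to the proteins found in ribosomes of all tissues, the medians were -0.14 for 22 large subunit genes and -0.17 for 20 small subunit genes.

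Rpl12 encodes a protein at the base of the stalk to which translation factors bind. Its only probe set read 7.12 log2 in CMT-93-PM1 and 8.82 log2 in CMT-93, 3.25-fold lower in CMT-93-PM1. This probe set is far dimmer than the 2 that the annotation lists for Rpl12 together with predicted copies, which read 13.35 log2 on the CMT-93-PM1 array and from 13.31 to 13.49 log2 on the CMT-93 array. Those brighter probe sets had log2 ratios from -0.14 to 0.04, so the 3.25-fold difference was seen by 1 probe set of the 3. All 4 measured genes listed with the stalk, of which Rpl11 is not itself a stalk protein, were below 0, with a median of -0.10. Those other than Rpl12 were close to equal. Rplp0, which anchors the stalk, read 13.85 in CMT-93-PM1 and 13.90 in CMT-93, and Rplp2, one of its acidic arms, read 13.78 in CMT-93-PM1 and 13.81 in CMT-93. Rpl11, a protein of the 5S ribosomal RNA particle that, when free of the ribosome, binds the p53 regulator Mdm2, read 12.91 in CMT-93-PM1 and 13.05 in CMT-93.

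Rpl14, a surface protein of the large subunit, followed, at 8.45 log2 in CMT-93-PM1 and 9.35 log2 in CMT-93, 1.87-fold lower. Here 5 brighter probe sets shared with a pseudogene also read lower, by log2 ratios from -0.40 to -0.35. Rpl39, which lines the tunnel through which the new protein leaves, read 7.27 in CMT-93-PM1 and 7.70 in CMT-93, with a ratio of -0.43, and -0.23 by a probe set shared with a predicted gene. All the shared probe sets of Rpl14 and Rpl39 therefore pointed the same way as their own, with smaller ratios. Of the 5 measured exit tunnel proteins 4 had ratios below 0, and the fifth, Rpl4, read 13.46 in CMT-93-PM1 and 13.33 in CMT-93. Both measured proteins that contact tRNA in the large subunit were below 0, Rpl10a at 13.04 in CMT-93-PM1 and 13.30 in CMT-93 and Rpl8 at 12.91 in CMT-93-PM1 and 12.97 in CMT-93.

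In the small subunit the lowest ratio was that of Rps25, a protein of the subunit's head that some viral mRNAs need for translation. It read 9.43 log2 in CMT-93-PM1 and 9.99 log2 in CMT-93, and a brighter probe set shared with predicted copies gave a similar ratio of -0.45. Rps9, which in yeast affects the accuracy of decoding, read 12.71 in CMT-93-PM1 and 13.23 in CMT-93. Rps3, which sits where mRNA enters, read 12.83 in CMT-93-PM1 and 13.34 in CMT-93. Rps14, a platform protein, read 12.54 in CMT-93-PM1 and 13.04 in CMT-93, with its other probe set at 12.16 in CMT-93-PM1 and 12.68 in CMT-93. These 3 genes were 1.43-fold, 1.42-fold and 1.41-fold lower in CMT-93-PM1 and had the largest ratios in size of all 34 members with a mean signal of 12 log2 or more. Rps6, the substrate of the S6 kinases, read 8.89 in CMT-93-PM1 and 9.30 in CMT-93 by its own probe set, a ratio of -0.41. Its 8 measured shared probe sets ran from -0.18 to 0.13 with a median of 0.09, so its direction depends on the probe set.

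Among proteins of the mRNA channel, head and platform of the small subunit, 10 of 11 measured genes were below 0, against 48.7% of all measured genes. Their median was -0.13. The exception was Rps29, a small zinc-binding protein of the head, at 13.76 in CMT-93-PM1 and 13.70 in CMT-93. Of 18 genes mutated in Diamond-Blackfan anaemia in humans, 11 were measured here, and 10 of them were below 0 with a median of -0.14. Rps19, the gene most often mutated in that disease, read 12.58 in CMT-93-PM1 and 12.91 in CMT-93. Rps10 read 13.48 in CMT-93-PM1 and 13.75 in CMT-93, and all 6 of its probe sets were below 0, from -0.77 to -0.26. Rps28 (13.96 in CMT-93-PM1, 14.01 in CMT-93) and Rps7 (13.44 in CMT-93-PM1, 13.47 in CMT-93) differed between the arrays by at most 0.05 log2.

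Rpl7 stood at the other end. This protein of the large subunit read 13.71 log2 in CMT-93-PM1 and 13.25 log2 in CMT-93, 1.38-fold higher. Its other probe sets read 13.53 in CMT-93-PM1 and 13.16 in CMT-93, and 12.77 in CMT-93-PM1 and 12.34 in CMT-93, so the 3 ratios ran from 0.37 to 0.46. No other member had every probe set this far above 0. Rpl7l1, a relative of Rpl7 that takes part in assembling the large subunit, read 11.08 in CMT-93-PM1 and 10.82 in CMT-93, with its other probe sets at 0.23 and -0.01. Rps3a1, a small subunit protein that contacts initiation factors, read 13.86 in CMT-93-PM1 and 13.76 in CMT-93, a ratio of 0.10. In all, 7 of 46 members were above 0, against 49.2% of all measured genes, among them Rpl27a and Rps19bp1 at 0.01 each.

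**Figure D2:**
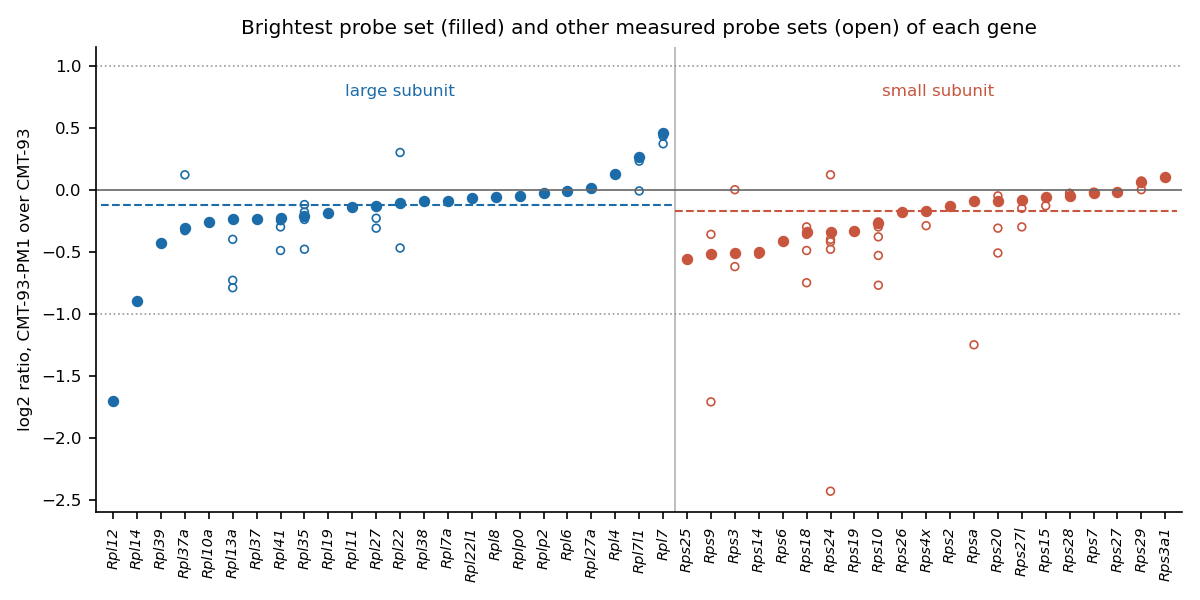
Log2 ratio of CMT-93-PM1 over CMT-93 for the brightest probe set (filled) and every other measured probe set (open) of 24 large subunit and 21 small subunit genes, with dashed lines at the subunit medians of -0.12 and -0.17 and dotted lines at 2-fold. Only Rpl12 passes 2-fold by its brightest probe set, and dimmer probe sets of Rps9, Rps24 and Rpsa lie below 2-fold.

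Several members have relatives whose expression is known to be tissue-restricted or regulated. Rpl22l1, which can take the place of Rpl22 in the ribosome, read 11.45 log2 in CMT-93-PM1 and 11.52 log2 in CMT-93, and Rpl22 itself read 13.43 in CMT-93-PM1 and 13.54 in CMT-93. Rpl22 was not uniform, since its probe sets gave ratios of -0.47, -0.11 and 0.30. Rps27l, a p53 target in human cells, read 11.85 in CMT-93-PM1 and 11.93 in CMT-93, and its counterpart Rps27 read 7.03 in CMT-93-PM1 and 7.05 in CMT-93 by its own probe set and 12.56 in CMT-93-PM1 and 12.75 in CMT-93 by a brighter one shared with a retrotransposed copy. By their brightest probe sets both relatives thus differed by less than 0.1 log2, while the other probe sets of Rps27l gave ratios of -0.15 and -0.30. The 4 members below the floor on both arrays, which count as unmeasured, were Rpl3l (3.75 on each array), known from muscle, Rpl39l (4.2 in CMT-93-PM1, 4.02 in CMT-93), known from testis, Rps4l (3.38 in CMT-93-PM1, 3.72 in CMT-93) and the only probe set of its own that Rps16 has (3.17 in CMT-93-PM1, 2.83 in CMT-93). The 2 brighter probe sets shared between Rps16 and its copies read from 13.27 to 13.50 in CMT-93-PM1 and from 13.34 to 13.53 in CMT-93, so the value below the floor describes that probe set and not the gene. Rpl39l was the unmeasured member closest to the floor, and Rps27 the dimmest measured one.

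The 106 probe sets that name a member alone show how far the value of a gene depends on its probe set. Of the 22 members with several measured probe sets, 15 had all of them below 0. For 3 of the 22 the ratios differed by 1 log2 or more. The matching shares among all genes with several measured probe sets are not given here, so neither count can be called unusual. Rps24, whose transcripts are alternatively spliced, had 4 bright probe sets with ratios from -0.48 to -0.34, a dim one at 5.06 log2 in CMT-93-PM1 and 7.49 log2 in CMT-93, 5.39-fold lower, and another dim one at 5.32 in CMT-93-PM1 and 5.2 in CMT-93. Rps9 had a dim probe set at 4.36 in CMT-93-PM1, below the floor, and 6.30 in CMT-93, at least 3.27-fold lower, beside ratios of -0.52 and -0.36 for the brighter ones. Rpsa, a small subunit protein also known as the precursor of a laminin receptor, read 13.29 in CMT-93-PM1 and 13.38 in CMT-93 by its bright probe set and 6.43 in CMT-93-PM1 and 7.68 in CMT-93 by its dim one, 2.38-fold lower. In all 3 genes the widest difference came from a probe set whose mean signal was below 8 log2.

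Over the members as a whole, the median ratio was lowest below 8 log2 but did not rise steadily with signal. The members' probe sets with a mean signal below 8 log2 had a median log2 ratio of -0.46. Of these 18, 15 were below 0 and 4 were at least 2-fold lower. All other named probe sets in that range had a median of -0.04 with 53.2% below 0, and 485 of 14272 were at least 2-fold lower. At 8 to 10 log2 the members' 7 probe sets had a median of -0.41 against 0.09 for the others, and at 10 to 12 log2 their 11 had a median of -0.15 against 0.07. At 12 to 13 log2 the median was -0.37 with 19 of 20 below 0, against 0.02 and 46.9% for 384 other probe sets. At 13 log2 and above it was -0.12 with 36 of 43 below 0, against 0.00 and 50% for 62 others. The members' median was therefore lower than that of other probe sets in every range, and closest to 0 at the top of the scale. Within the 11 members that have probe sets both below 10 and at or above 12 log2, the dim ones had the lower median in 9, or 81.8%, and the same order was found in 71.9% of 114 other genes. Probe sets of one gene are not independent, and the part of signal level in this pattern was not tested.

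**Figure D3:**
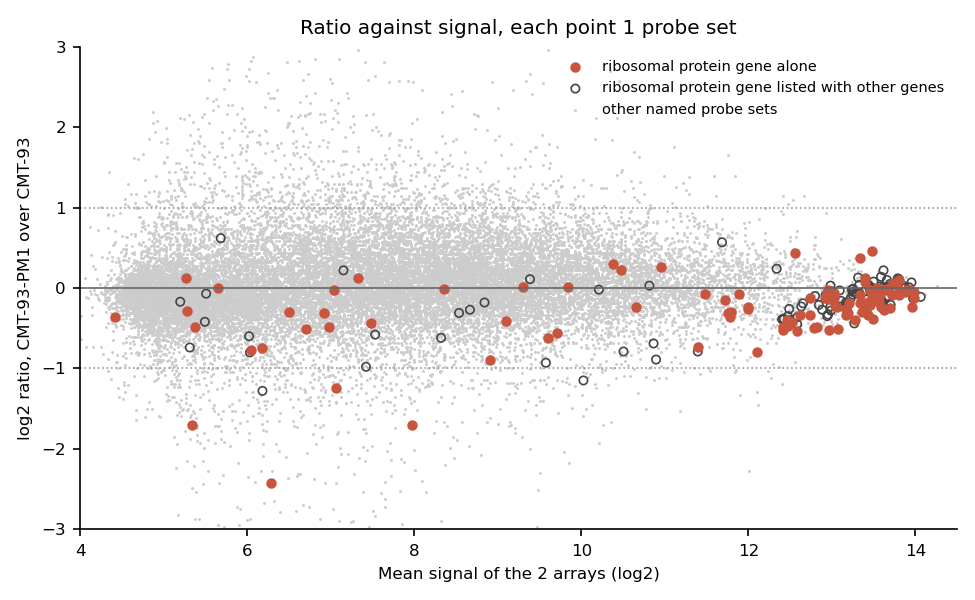
Log2 ratio of CMT-93-PM1 over CMT-93 against mean log2 signal, 1 point per measured probe set, for probe sets that name a ribosomal protein gene alone (filled), those that list one with other genes (open circles) and all other named probe sets (grey, cut at 3 log2 in either direction). Ribosomal protein probe sets crowd at 12 to 14 log2 just below 0, and the dimmer ones scatter mostly below 0, with the lowest at -2.43.

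The 110 probe sets that list a ribosomal protein gene together with other genes gave a second view of the family on the same arrays. Of the 104 that were measured, 77 were below 0 and 23 above, against 48.7% and 49.2% of all measured genes. Their median log2 ratio was -0.12, with a range from -1.28 to 0.62. Those at 12 to 13 log2 had a median of -0.27 with 19 of 21 below 0, and the 58 at 13 log2 and above had a median of -0.04 with 38 below 0. With 1 probe set for each of the 71 ribosomal protein genes that could be followed in this way, copies included, the median was -0.09, 57 were below 0 and none passed 2-fold. The copies share sequence with their parent genes, so these signals can add several transcripts together.

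**Figure D4:**
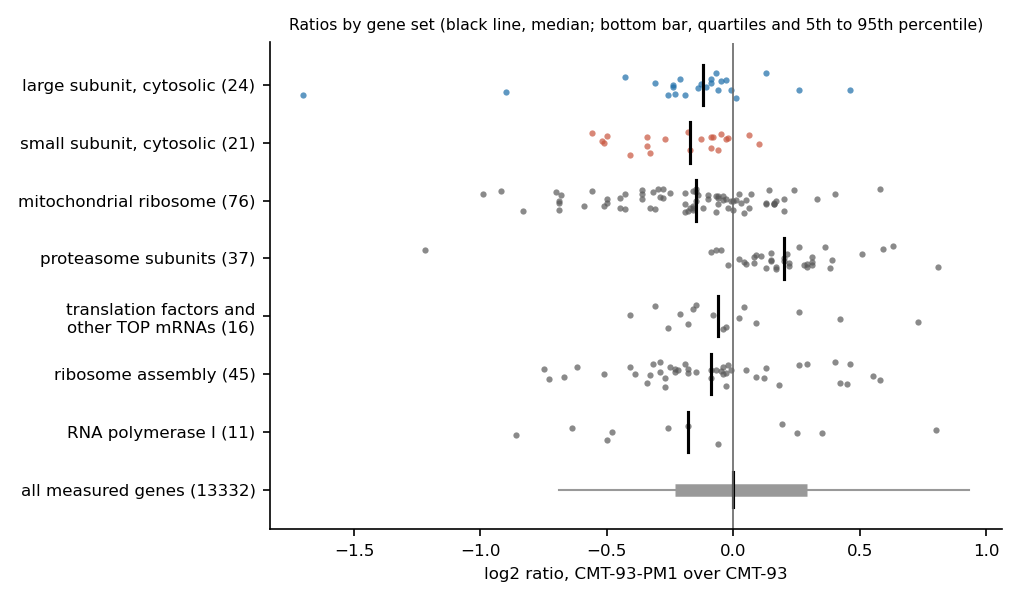
Log2 ratio of CMT-93-PM1 over CMT-93 for the measured genes of 7 sets, 1 point per gene with a black line at the median, above the quartiles and the 5th to 95th percentiles of all 13332 measured genes. The medians of both cytosolic subunits and of the mitochondrial ribosome lie below 0 and that of the proteasome lies above it.

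The ribosome of mitochondria, which translates mitochondrial mRNAs with proteins made in the cytosol, was similar in its median. Its genes were taken by symbol alone, as Mrpl or Mrps followed by a number. Of these 76 measured genes, 54 or 71.1% were below 0, against 48.7% of all measured genes. The median was -0.15, with ratios from -0.99 for Mrps28 to 0.58 for Mrpl24. The Mrpl genes, named for the large subunit, and the Mrps genes, named for the small one, had medians of -0.15 and -0.16. The proteasome, another complex of many subunits made in fixed proportion, was taken as symbols beginning with Psma, Psmb, Psmc or Psmd and a number. These had mostly higher signals in CMT-93-PM1, with a median of 0.20. Of the 37 measured genes 32 were above 0, against 49.2% of all measured genes. They include Psmc3ip, which is not a subunit, and the assembly factors Psmd5, Psmd9 and Psmd10, each above 0. Psmc1, an ATPase of the cap and the subunit with the highest ratio, read 10.78 in CMT-93-PM1 and 9.97 in CMT-93. Psmb10, a catalytic subunit of the immunoproteasome, had the lowest ratio and was the single subunit past 2-fold, at 7.57 in CMT-93-PM1 and 8.79 in CMT-93, 2.33-fold lower in CMT-93-PM1. A difference between these sets could not be tested with 1 array per culture.

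Other genes of the translation machinery were mixed. Of 16 measured translation factors and other genes with TOP mRNAs, 10 were below 0, against 48.7% of all measured genes. Their median was -0.06. None passed 2-fold by its brightest probe set, against 2.55% lower and 4.42% higher among all measured genes. A dimmer probe set of Pabpc1 was 2.57-fold lower in CMT-93-PM1. The elongation factor gene Eef1b2 read 13 log2 in CMT-93-PM1 and 13.41 in CMT-93, and the nascent-chain factor gene Btf3 read 11.06 in CMT-93-PM1 and 11.37 in CMT-93. Fau, which encodes a small subunit protein fused to a ubiquitin-like protein, read 12.93 in CMT-93-PM1 and 13.11 in CMT-93. At the other end were Eif3h, an initiation factor subunit (12.19 in CMT-93-PM1, 11.77 in CMT-93), and Eif4b, which stimulates the unwinding of mRNA (10.60 in CMT-93-PM1, 9.87 in CMT-93). All 3 probe sets of Eif4b were higher in CMT-93-PM1, from 0.65 to 0.88. Among 45 genes of ribosome assembly, 32 or 71.1% were below 0 with a median of -0.09, and none passed 2-fold by its brightest probe set. The lowest were the pseudouridine synthase gene Dkc1 (10.54 in CMT-93-PM1, 11.29 in CMT-93) and Rrp9 (8.61 in CMT-93-PM1, 9.34 in CMT-93), and the highest were Utp3 (10.21 in CMT-93-PM1, 9.63 in CMT-93) and Eif6, which keeps the subunits apart until the large one is mature (12.54 in CMT-93-PM1, 11.99 in CMT-93). A dimmer probe set of Eif6 went the other way (7.61 in CMT-93-PM1, 8.01 in CMT-93).

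Of 11 measured genes of RNA polymerase I and its factors, which transcribe ribosomal RNA, 7 were below 0 with a median of -0.18. That share, 63.6%, stands beside 48.7% of all measured genes. The genes ran from Taf1d (8.13 in CMT-93-PM1, 8.99 in CMT-93) and the polymerase subunit gene Polr1b (7.30 in CMT-93-PM1, 7.94 in CMT-93) to Taf1c (7.98 in CMT-93-PM1, 7.63 in CMT-93) and Taf1b (8.37 in CMT-93-PM1, 7.57 in CMT-93). Other measured probe sets of Taf1d were lower as well, among them dimmer ones 3.46-fold and 2.55-fold lower in CMT-93-PM1. Of 15 measured genes of mTORC1 signalling and the Myc family, 9 or 60% were below 0, against 48.7% of all measured genes, with a median of -0.12. None passed 2-fold by its brightest probe set, while a dimmer one of Eif4ebp1 was 2.1-fold lower. Of all measured genes, 2.55% were at least 2-fold lower and 4.42% at least 2-fold higher. The mTORC1 subunit gene Mlst8 read 6.98 in CMT-93-PM1 and 7.71 in CMT-93, and the translational repressor gene Eif4ebp1 read 11.17 in CMT-93-PM1 and 11.79 in CMT-93. Tsc1 (8.64 in CMT-93-PM1, 8.05 in CMT-93) and Tsc2 (8.72 in CMT-93-PM1, 8.09 in CMT-93), which together restrain mTORC1, were higher in CMT-93-PM1, and Myc, a known activator of ribosomal protein genes, read 9.59 in CMT-93-PM1 and 9.77 in CMT-93. These values are mRNA signals and say nothing of the activity of the kinase.

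The promoters of 41 of the 46 measured members were found in the RefSeq-based table of assembly GRCm38.p6, from 250 bases before to 50 after the annotated start. Rpl7, Rpl8, Rps14, Rps20 and Rps29 had no entry. The letters CTTTCC, which can be part of a TOP tract, occurred on either strand in 22 of 41 members (53.7%), against 30.2% of 14367 genes on the array with an entry. Both strands and the whole window were searched, so a match need not be a TOP tract. A gene without a match can still have one. CCGGAAG, the core bound by Ets factors, occurred in 20 of 41 members (48.8%), against 15% of those genes and 37.3% of 67 mitochondrial ribosomal protein genes. The TATA box letters TATAAA occurred in 14.6% of members and 11.5% of those genes, and the E-box CACGTG, a site of Myc, in 9.76% and 10.3%. Matches of the first 2 motifs can overlap at their ends, and a gene with several annotated starts was counted once if any of them had a match. Members with CTTTCC had a median log2 ratio of -0.12 and the 19 without it -0.24, and members with CCGGAAG had -0.16 and the 21 without it -0.13.

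To show how different these starts can be, the 90 bases before and 30 after the start are given for the members with the lowest ratios, Rpl12 (chr2:32961622-32961741, plus strand) and Rpl14 (chr9:120571427-120571546, plus strand), and for the members with the highest ratios among the ubiquitous ones with a single entry, Rpl4 (chr9:64173297-64173416, plus strand) and Rps3a1 (chr3:86142639-86142758, minus strand). Capitals mark CTTTCC and CCGGAAG on either strand, and the windows of Rpl12 and Rpl14 hold neither. Both have runs of pyrimidines at or next to the start, so the lack of CTTTCC does not mean the lack of a TOP tract.
Rpl12: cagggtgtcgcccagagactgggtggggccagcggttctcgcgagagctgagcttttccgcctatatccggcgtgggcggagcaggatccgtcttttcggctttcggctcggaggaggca
Rpl14: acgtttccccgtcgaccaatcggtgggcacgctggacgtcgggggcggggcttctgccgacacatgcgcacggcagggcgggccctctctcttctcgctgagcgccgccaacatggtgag
Rpl4: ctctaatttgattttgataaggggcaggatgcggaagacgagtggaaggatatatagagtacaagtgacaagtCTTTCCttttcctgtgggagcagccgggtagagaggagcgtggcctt
Rps3a1: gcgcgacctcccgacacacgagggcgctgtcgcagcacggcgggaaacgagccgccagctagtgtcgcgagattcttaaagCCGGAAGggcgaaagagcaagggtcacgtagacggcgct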

How the data were processed

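Total RNA of CMT-93-PM1 and CMT-93 was hybridized to 1 Affymetrix mouse array each. The deposited values are log2 signals of 45037 probe sets; base 2 was inferred from their range. Per the submitters' processing notes, MAS5 was used, with no role given. The sources used here do not give their scaling; the quantiles differed by at most 0.11 log2, and the values were used as deposited. Probe sets with 1 symbol in the platform annotation (34945 of 35877 listed) were named and updated by Entrez identifier to GRCm38.p6, and those with several symbols named no gene. Rps15a-ps6, a numbered pseudogene below the floor on both arrays, was left out.

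A gene was represented by its probe set of highest mean signal, and ratios were taken after flooring. Medians and counts stand beside those of all measured genes, and no test was possible. The summary was tested on simulated data with a planted shift. Alternatives were other scalings, signal-dependent centring (lowess span 0.3), other floors, probe set rules and memberships. Members and lists were chosen with earlier results of these data known. Named genes were those past 2-fold, the 8 lowest and 4 highest members, relatives, members of role groups, members whose probe sets differed by 1 log2 or more, and the 2 most extreme genes per direction of other lists; Psmc1, Psmb10, Mrps28, Mrpl24, Fau, Myc and the markers were chosen once their values were known. Python 3.11.15 with pandas 2.3.3, scipy 1.17.1 and statsmodels 0.14.6 was used.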

Additional observations from a re-analysis of the deposited data

How the results depend on the processing

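The median of the measured members, 46 as reported, stayed between -0.19 and -0.09 under every alternative except 2. The number of genes ran from 34 to 71 across these, since some alternatives changed which genes were counted. Shifting the arrays to equal medians added 0.10 to every gene alike, which gave -0.03 for all members and -0.07 for the small subunit, with 25 members below 0. Relative to the median of all genes, then at 0.10, the members stayed at -0.13, and 38% of all genes were below 0. Leaving out suffixed probe sets (_s, _x, _a), which can match related transcripts, kept 23 members, dimmer on the whole, with medians of -0.41 for all, -0.30 for the large and -0.56 for the small subunit, a difference of 0.26, with 20 members below 0 and 3 at least 2-fold lower, and Rps9 moved to its dim probe set at -1.71. A further 2 alternatives, chosen after seeing the data, left 0 members at least 2-fold lower, because Rpl12 was then represented by a bright shared probe set or not included: counting probe sets shared with copies, and keeping members at 12 log2 or more. The large minus small difference stayed between 0.02 and 0.10 otherwise. Of 128 values of named members under other scalings, floors and probe set rules, 127 moved by less than 0.18 log2. Many of them could not move, since no measured member was at the floor and a member with 1 probe set keeps it. The alternative that counted shared probe sets was not among them. Shared probe sets gave Rpl12 ratios from -0.14 to 0.04 instead of -1.70, and Rps6 a median of 0.09 instead of -0.41. No paired analysis was possible because each culture had 1 array. The single array per culture limits the precision of every value.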
